A study of Mus musculus with 9 samples.

Results

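The IL-20 family cytokines and the chains of their receptors were followed in the epidermis of mouse ears. These were 8 genes, found by their symbols in the deposited count table of 52550 genes. They were the ligands Il19, Il20 and Il24, the signalling receptor chains Il20ra, Il20rb, Il22ra1 and Il10rb, and Il22ra2, which encodes a soluble decoy. Each symbol occurred once in the table. RNA sequencing counts were available for 9 epidermis libraries in 3 groups of 3, all from wild type C57BL/6 mice with a labelled age of 8 weeks. Mice of the control group (VAS + H2O) had Vaseline on the ears for 5 days and ddH2O by gavage for 10 days. Mice of the model group (IMQ + H2O) had imiquimod cream, an agonist of Toll-like receptor 7 that induces psoriasis-like dermatitis, in place of Vaseline. Mice of the XYF group (IMQ + XYF) had imiquimod and, in place of ddH2O, gavage of Xiao-Yin-Fang (XYF), a herbal decoction, at 23.3 mg/g in 200 µl. Imiquimod was thus shared by the model and XYF groups, and no group here received XYF with Vaseline. The ear sheets were stated to come from 2 mice, without saying whether this holds for each library, so p-values measure the spread between libraries, which may in part be technical.

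IL-19, IL-20 and IL-24 signal through a receptor made of the IL-20Rα and IL-20Rβ chains, and IL-20 and IL-24 also through IL-22Rα1 paired with IL-20Rβ. IL-22Rα1 paired with IL-10Rβ is the receptor of IL-22, which the decoy encoded by Il22ra2 binds and blocks. In keratinocytes these receptors activate JAK1 and STAT3, and the cytokines are known in psoriasis for driving epidermal thickening, antimicrobial proteins and chemokines while lowering terminal differentiation.

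In the mouse the 3 ligand genes lie side by side on the minus strand of chromosome 1. In GRCm38 coordinates of the GENCODE M21 annotation, Il24 (ENSMUSG00000026420) spans chr1:130882074-130887454, Il20 (ENSMUSG00000026416) chr1:130906985-130911451 and Il19 (ENSMUSG00000016524) chr1:130932656-130940115. The gaps are 19.5 kb between Il24 and Il20 and 21.2 kb between Il20 and Il19, and Il10 begins 79.7 kb beyond Il19. Of the receptor genes, Il22ra2 (ENSMUSG00000039760, chr10:19621998-19634681, plus strand) lies 77.9 kb from Il20ra (ENSMUSG00000020007, chr10:19712570-19760053, plus strand). Il20rb (ENSMUSG00000044244) is at chr9:100457719-100486788 on the minus strand, Il22ra1 (ENSMUSG00000037157) at chr4:135728172-135752140 on the plus strand and Il10rb (ENSMUSG00000022969) at chr16:91406164-91425834 on the plus strand. Il10rb shares 569 bases of exon with Gm21970, a transcript model on the same strand that has 0 counts in every library.

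The sequences before the start sites of 3 genes are shown because these genes differed in their direction with imiquimod: Il19 rose, Il20ra fell, and Il22ra1 did not pass the test. RefSeq promoter sequences (GRCm38.p6) were matched for 5 of the 8 genes, and Il24, Il22ra2 and Il10rb are named only. The 250 bases before each RefSeq start were searched on both strands for a STAT site (GAS, TTCNNNGAA), an AP-1 site (TGANTCA) and an NF-kB site, named only. The lines run 5′ to 3′ toward the start, with matches in capitals, and bases inside the annotated gene body are left out.
Il19 (chr1:130940116-130940365, minus strand): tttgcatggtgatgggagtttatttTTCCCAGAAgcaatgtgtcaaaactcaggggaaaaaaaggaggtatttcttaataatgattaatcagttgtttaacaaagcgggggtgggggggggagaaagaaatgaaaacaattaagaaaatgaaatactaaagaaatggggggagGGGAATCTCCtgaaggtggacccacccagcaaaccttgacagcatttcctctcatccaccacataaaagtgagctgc
Il20ra (chr10:19712337-19712569, plus strand): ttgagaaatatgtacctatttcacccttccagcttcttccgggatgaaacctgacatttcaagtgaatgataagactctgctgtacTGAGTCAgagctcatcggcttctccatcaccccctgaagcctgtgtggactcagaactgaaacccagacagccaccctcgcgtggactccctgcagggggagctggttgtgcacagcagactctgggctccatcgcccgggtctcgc
Il22ra1 (chr4:135727909-135728158, plus strand): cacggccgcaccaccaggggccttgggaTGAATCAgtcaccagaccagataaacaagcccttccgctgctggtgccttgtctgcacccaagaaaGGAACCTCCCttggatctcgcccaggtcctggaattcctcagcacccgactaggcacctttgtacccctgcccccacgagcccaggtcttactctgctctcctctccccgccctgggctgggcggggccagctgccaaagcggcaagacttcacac
Il19 had a GAS match beginning 225 bases and an NF-kB match beginning 77 bases before the start. Il20ra had an AP-1 match at 164 bases, and Il22ra1 an AP-1 match at 222 and an NF-kB match at 156 bases. The windows of Il20 and Il20rb held no match, but 155 bases of the first and all 250 of the second lay inside the annotated gene body. Of 32851 RefSeq windows of the same length, 7.02% held the GAS letters, 6.75% the AP-1 letters and 7.25% the NF-kB letters. A match describes letters only and no binding was measured.

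The libraries held 30298275 to 64771160 counts on genes. Levels are CPM, the usual normalised read count of edgeR, scaled to the library total and its TMM factor, and 3 counts, taken as the floor of detection, correspond to 0.0471 to 0.104 CPM. This floor covers counting error only. For each comparison, edgeR's quasi-likelihood test was run over all genes that passed its low-count filter, using only the 6 libraries compared. A DEG needed an adjusted p (Benjamini-Hochberg) no higher than 0.05 together with a log2 fold change of 1 or more in size. Keratinocyte markers summed to 44900 to 57300 CPM in VAS + H2O, 56700 to 68400 in IMQ + H2O and 57700 to 62600 in IMQ + XYF, with all 10 markers detected. Some libraries stood apart on markers of other cells. The sum of 10 dermal fibroblast markers was 746 CPM in replicate 2 of VAS + H2O, against 72 to 264 in the other 8 libraries. The sum of 10 neutrophil markers was 228 CPM in replicate 3 of IMQ + H2O and 166 in replicate 1 of IMQ + XYF, against 74.4 to 108 elsewhere. Csf3r, Clec4d, Retnlg and Mmp8 of that list, named here after their values were seen, had 315 to 1642 counts in these 2 libraries and 0 to 8 in the controls. Most of the sum in the controls came from Il1r2 and Cxcr2, with 2092 to 3456 and 350 to 520 counts. In these bulk samples, fewer cells of a type and less RNA per cell cannot be told apart.

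Among the ligands, Il24 and Il19 went from absent or nearly absent in control epidermis to readily counted after imiquimod, while Il20, the gene between them, stayed near the floor. Both DEGs among the 8 genes in the model group were these ligands. Over all 18009 genes tested in IMQ + H2O against VAS + H2O, 3.64% were DEGs that were higher in the model group.

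Il24, which encodes a cytokine made by keratinocytes and immune cells, had 0 counts in all 3 VAS + H2O libraries. In IMQ + H2O it had 82, 942 and 1473 counts, or 2.83, 24.5 and 34.1 CPM in the order of the replicate numbers. In IMQ + XYF it had 1319, 165 and 686 counts, or 20.7, 5.09 and 19.5 CPM. Every imiquimod library was above every control library, but the 2 imiquimod groups overlapped and 1 library of each, replicate 1 of IMQ + H2O and replicate 2 of IMQ + XYF, was several times lower than the other two. Since the control was at 0, the fold is a lower bound: the mean of IMQ + H2O, 20.5 ± 16.0 CPM (SD, n = 3), was at least 255-fold higher than 3 counts per control library, and its lowest library at least 35.3-fold. The adjusted p of edgeR was 0.0171, and 0.0395 without replicate 3, the library with the most neutrophil RNA. For IMQ + XYF, at 15.1 ± 8.70 CPM (SD, n = 3), the bounds were 189-fold for the mean and 63.5-fold for the lowest library, with an adjusted p of edgeR of 0.00392, and 0.0153 without replicate 1.

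Il19 had 0, 0 and 3 counts in VAS + H2O, so no control library exceeded the floor. In IMQ + H2O it had 70, 179 and 475 counts, or 2.42, 4.65 and 11 CPM, and in IMQ + XYF 234, 156 and 285 counts, or 3.67, 4.81 and 8.12 CPM. The imiquimod libraries were all above the controls and the model and XYF ranges overlapped. With 3 control counts in all, the pooled ratio of IMQ + H2O to VAS + H2O was 251, with an exact 95% counting interval of 85.6 to 1220, and that of IMQ + XYF was 197 (67.3 to 960). These counting intervals leave out the spread between libraries. edgeR, which takes it in, gave a log2 fold change of 7.66 for IMQ + H2O (SE 1.03, 95% interval 5.21 to 10.11, adjusted p = 0.0081). For IMQ + XYF it gave 7.55 (SE 0.80, 95% interval 5.64 to 9.47, adjusted p = 0.00155). Without replicate 3 of IMQ + H2O the first was 6.88 (edgeR adjusted p = 0.014), and without replicate 1 of IMQ + XYF the second was 7.78 (edgeR adjusted p = 0.00697). Without replicate 3 of VAS + H2O, which held all the control counts, the fitted values were 10.86 and 10.88 (edgeR adjusted p = 0.023 and 0.00394) and, with the controls then at 0, are no measure of the fold. In CPM per kb of exon, Il24 exceeded Il19 in 4 of the 6 imiquimod libraries. The exceptions were replicate 1 of IMQ + H2O at 2.04 against 2.10 and replicate 2 of IMQ + XYF at 3.67 against 4.18.

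Il20 had 16, 10 and 6 counts in VAS + H2O, 5, 11 and 4 in IMQ + H2O and 16, 0 and 0 in IMQ + XYF. Its highest library was thus a control library, at 0.338 CPM, and the groups overlapped in every pair. edgeR gave -0.59 on the log2 scale for IMQ + H2O against VAS + H2O (SE 0.55, adjusted p = 0.478), with a 95% interval of -1.90 to 0.73. Il20 did not pass the low-count filter in either comparison with IMQ + XYF. At this depth a rise of Il20 of the size seen for its neighbours would lie far outside that interval.

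**Figure D1:**
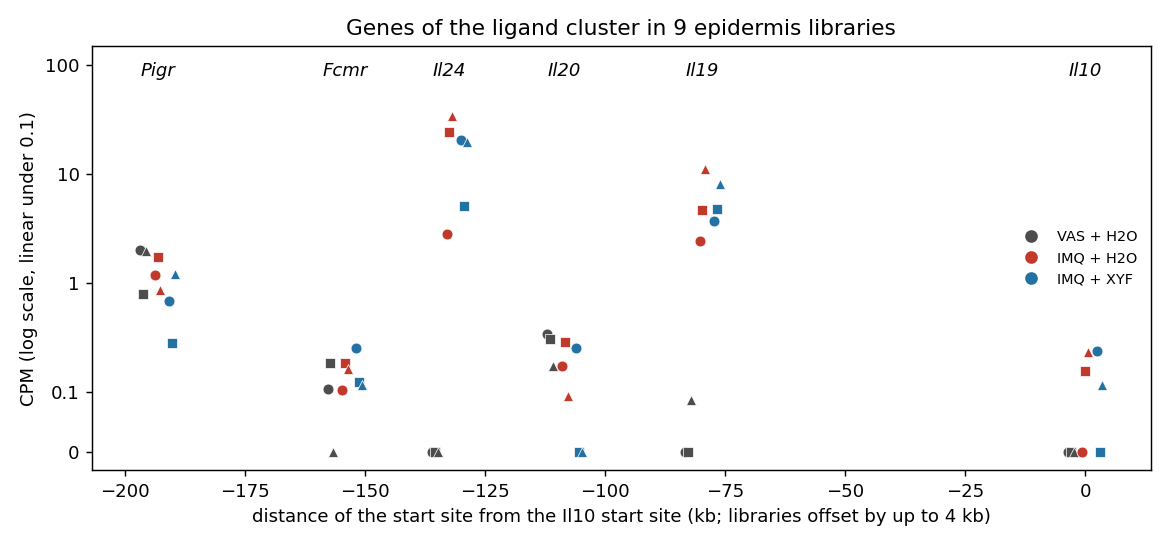
CPM (vertical axis, log scale, linear under 0.1) of the coding genes around the IL-20 family ligands in each library, by distance of the start site from that of Il10 in kb. Points are libraries (circle, square and triangle for replicates 1, 2 and 3), coloured by group, and Il24 and Il19 stand at 2.42 to 34.1 CPM in the 6 imiquimod libraries while Il20 between them stays at or under 0.338 CPM in all 9.

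Genes around the ligands were read as well. Of 6 genes listed beside the ligand cluster, 4 could be tested and Dyrk3, which encodes a protein kinase, was a DEG, at 3.69 ± 1.37 CPM in VAS + H2O and 8.02 ± 0.593 in IMQ + H2O (SD, n = 3; log2 fold change 1.11, SE 0.28, edgeR adjusted p = 0.0358). Il10, the founding member of the superfamily, had 0, 0 and 0 counts in VAS + H2O, 0, 6 and 10 in IMQ + H2O and 15, 0 and 4 in IMQ + XYF. Of the other ligands of the superfamily, Il22, Iltifb, Ifnl2 and Ifnl3 had 0 counts in all 9 libraries. For Il22, the ligand of the receptor that Il22ra1 and Il10rb encode, no message was therefore detectable in the epidermal sheets at this depth.

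Markers of infiltrating cells moved with the ligands in part. The neutrophil sum was 74.4 to 84.3 CPM in VAS + H2O, 88.8 to 228 in IMQ + H2O and 103 to 166 in IMQ + XYF. In the controls Il1r2 and Cxcr2 made up most of this sum, and every other marker of the list had 0 to 8 counts. Il1r2 had 2092 to 3456 counts in VAS + H2O and 1137, 2108 and 2415 in IMQ + H2O. For Cxcr2 the counts were 350 to 520 in VAS + H2O and 1425, 1938 and 3485 in IMQ + H2O. Ly6g, a defining neutrophil marker, had 0 counts in replicates 1 and 2 of IMQ + H2O, where Il19 was at 2.42 and 4.65 CPM and Il24 at 2.83 and 24.5 CPM, and 22 counts in replicate 3. Csf3r had 5, 33 and 1642 counts and Clec4d 4, 24 and 986 in the IMQ + H2O libraries, the same order as both ligands. In IMQ + XYF, Csf3r had 1459, 43 and 214 counts and Clec4d 773, 26 and 183. That is the order of Il24 there but not of Il19, which was lowest in replicate 1. The neutrophil sum of these libraries, 166, 107 and 103 CPM, had the order of neither ligand. The sum of 11 monocyte and macrophage markers was 36.7 to 46.7 CPM in VAS + H2O and 37.0, 57.7 and 128 CPM in the IMQ + H2O libraries, the same order as Il24 and Il19. In IMQ + XYF it was 96.8, 34.8 and 50.4 CPM, where Il24 was lowest in the library with the lowest sum and Il19 lowest in the one with the highest. Csf1r made up most of the monocyte and macrophage sum in the controls, at 980 to 1837 counts. The part of these cells in the ligand counts was not tested.

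The signalling chains of the receptor moved the other way. Il20ra and Il20rb, the chains of the type shared by all 3 ligands, were lower in both imiquimod groups, whereas Il22ra1 and Il10rb, the chains of the IL-22 receptor, did not pass the threshold. Both passed the adjusted p in IMQ + H2O against VAS + H2O, where 9.41% of all genes tested were lower at an adjusted p of at most 0.05. Neither reached the fold change required of a DEG in that comparison, for which the background was 4.04% lower. In that comparison the adjusted p of both also depended on single libraries, as given for each gene.

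Il20ra, which encodes the α chain, had 50.8, 74.1 and 81.5 CPM in VAS + H2O. It had 43.2, 37.4 and 30.9 CPM in IMQ + H2O and 32.7, 35.2 and 30 CPM in IMQ + XYF. All 6 imiquimod libraries were below all 3 controls, with the smallest gap at replicate 1 of VAS + H2O. Il20ra fell by 0.90 on the log2 scale in IMQ + H2O (SE 0.20, edgeR adjusted p = 0.0243) and by 1.07 in IMQ + XYF (SE 0.18, edgeR adjusted p = 0.00608), where it was a DEG against a background of 3.05% lower DEGs. Without replicate 1 of VAS + H2O it was a DEG in IMQ + H2O too, and without replicate 3 of VAS + H2O it was no DEG in IMQ + XYF, since its fold change lies close to the threshold. In IMQ + H2O the adjusted p of edgeR was above 0.05 when replicate 2 or 3 of VAS + H2O (0.0784 and 0.0669) or replicate 2 or 3 of IMQ + H2O (0.0658 and 0.0691) was left out, with log2 fold changes of -1.08 to -0.73 over all 6 omissions. In IMQ + XYF it was at most 0.0305 with any 1 library left out, and DESeq2 gave an adjusted p of 0.000287 in IMQ + H2O.

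Il20rb, which encodes the β chain that every IL-20 family ligand needs, had 290, 267 and 319 CPM in VAS + H2O, 201, 205 and 138 CPM in IMQ + H2O and 129, 185 and 165 CPM in IMQ + XYF. No imiquimod library reached the lowest control. The gene fell by 0.70 on the log2 scale in IMQ + H2O (SE 0.16, edgeR adjusted p = 0.0252) and by 0.87 in IMQ + XYF (SE 0.14, edgeR adjusted p = 0.0055). In the latter comparison 12% of all genes tested were lower at an adjusted p of at most 0.05. In IMQ + H2O the adjusted p of edgeR was above 0.05 when replicate 1, 2 or 3 of VAS + H2O (0.0687, 0.0593 and 0.076) or replicate 1 of IMQ + H2O (0.056) was left out, with log2 fold changes of -0.76 to -0.54 over all 6 omissions. In IMQ + XYF it was at most 0.0256 with any 1 library left out, and DESeq2 gave an adjusted p of 0.000569 in IMQ + H2O. Il20rb had a mean level above 96.7% of the genes tested, and its fold change in IMQ + H2O stood at the 14th percentile of all genes, that of Il20ra at the 9.61st.

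Il22ra1, which encodes the chain shared by the IL-22 receptor and the second receptor of IL-20 and IL-24, had 79.0, 67.1 and 69.8 CPM in VAS + H2O, 66.2, 79.7 and 45.8 CPM in IMQ + H2O and 51.7, 67.7 and 54.4 CPM in IMQ + XYF. The groups overlapped in every pair. Its log2 fold change was -0.19 in IMQ + H2O (SE 0.19, edgeR adjusted p = 0.518, 95% interval -0.64 to 0.27) and -0.31 in IMQ + XYF (SE 0.12, edgeR adjusted p = 0.0954, 95% interval -0.60 to -0.03). Il10rb, the widely used partner chain, had 17.4, 15.8 and 14.9 CPM in VAS + H2O, 21, 20.9 and 18.7 in IMQ + H2O and 19.4, 19.4 and 19.0 in IMQ + XYF. Its imiquimod libraries were all above the controls, yet the adjusted p of edgeR was 0.0839 in IMQ + H2O (log2 fold change 0.32, SE 0.11) and 0.0794 in IMQ + XYF (log2 fold change 0.27, SE 0.10).

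Il22ra2, the decoy, had 31.4, 22.0 and 23.5 CPM in VAS + H2O, 26.3, 37.5 and 27.4 in IMQ + H2O and 36.9, 29.5 and 23.3 in IMQ + XYF. These ranges overlapped throughout. The log2 fold change was 0.23 in IMQ + H2O (SE 0.19, edgeR adjusted p = 0.408) and 0.22 in IMQ + XYF (SE 0.20, edgeR adjusted p = 0.447). In all, 5 of the 8 genes had no overlap between IMQ + H2O and VAS + H2O, where 45% of all genes tested had none, and 5 had none between IMQ + XYF and VAS + H2O, where 47.5% had none. These shares over all genes are large, so the absence of overlap by itself set the family little apart.

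**Figure D2:**
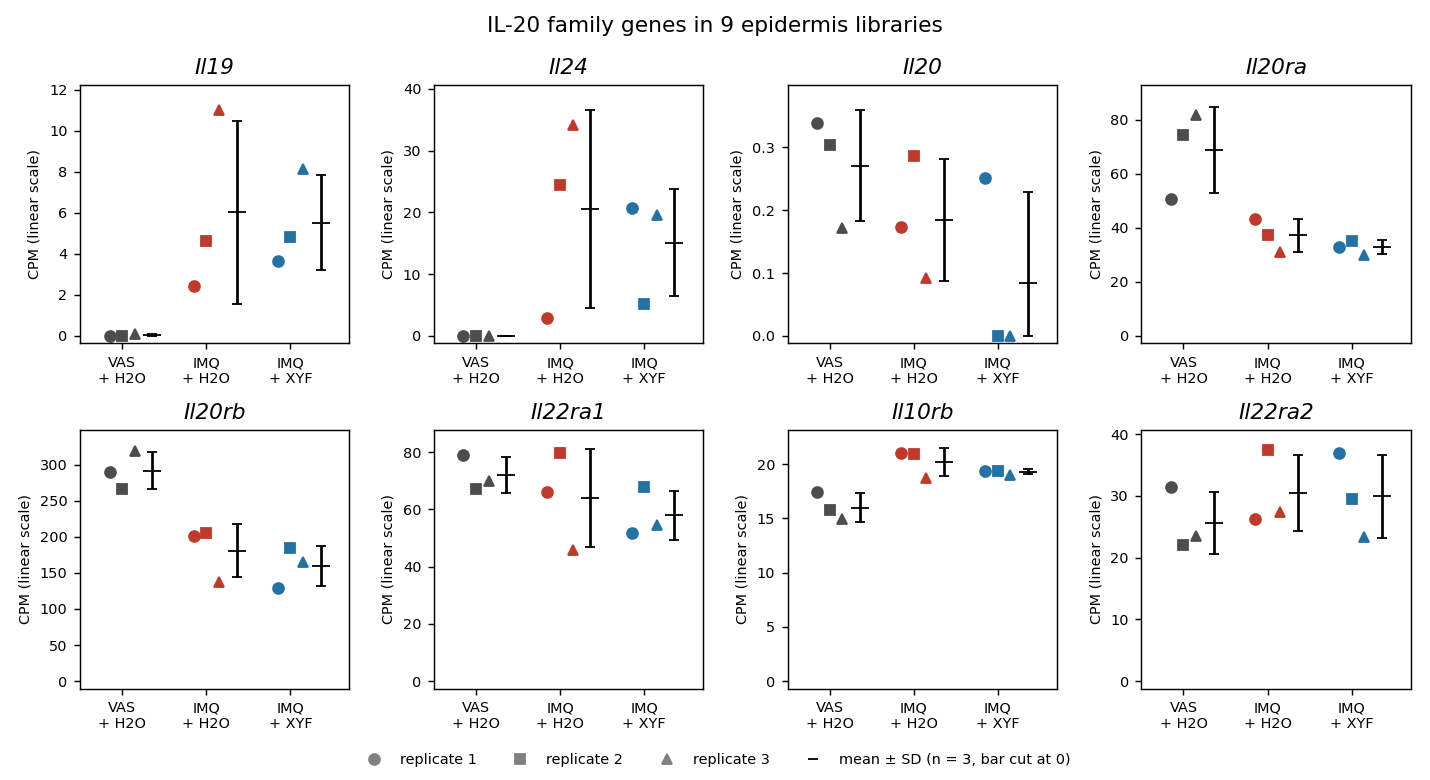
CPM (vertical axes, linear scale from 0) of the 8 genes in the 3 libraries of each group, with mean ± SD (n = 3) beside the points and symbols for the replicate numbers. Il19 and Il24 are at or near 0 in VAS + H2O and above it in all imiquimod libraries, Il20ra and Il20rb are lower in every imiquimod library than in every control, and the IMQ + H2O and IMQ + XYF points overlap in all 8 panels.

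**Figure D3:**
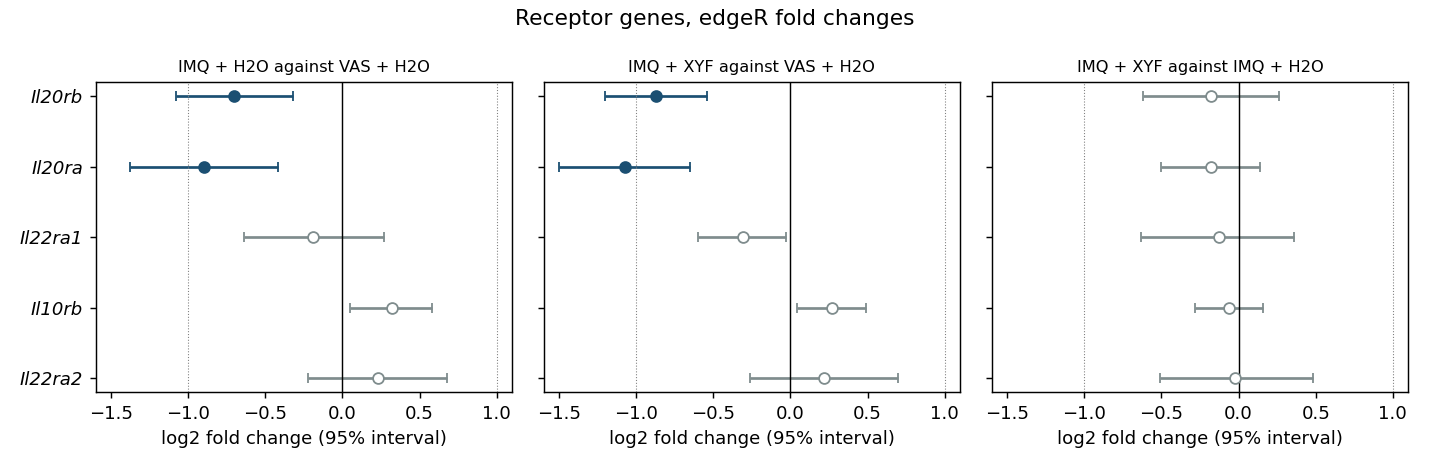
Log2 fold changes (horizontal axis) of the 5 receptor genes with 95% intervals from edgeR, in the 3 comparisons of groups. Filled points passed an adjusted p of at most 0.05, which Il20ra and Il20rb did against VAS + H2O with values from -0.70 to -1.07, and dotted lines mark the fold change required of a DEG.

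Markers of the other cells in the sheets were read beside these receptor values. Langerhans cell markers summed to 791 to 910 CPM in VAS + H2O, 742 to 973 in IMQ + H2O and 773 to 827 in IMQ + XYF, ranges that overlapped. The sum of 11 markers of dendritic epidermal T cells was 96.3 to 111 CPM in VAS + H2O, and lower without overlap in IMQ + H2O, at 55.7 to 81.4, and in IMQ + XYF, at 50.5 to 76.8. By itself, only 1 of these 11 markers was a lower DEG in each imiquimod group against VAS + H2O. Cartilage markers were 197 to 461 CPM in VAS + H2O, 39.9 to 86.0 in IMQ + H2O and 135 to 205 in IMQ + XYF, with Matn1 at 0 in every library. The part of these cells in the lower receptor counts was not tested. Without replicate 2 of VAS + H2O, the library with the most fibroblast and cartilage RNA, Il19 and Il24 were the DEGs in IMQ + H2O, while Il20ra and Il20rb no longer passed the adjusted p of edgeR (0.0784 and 0.0593). Their log2 fold changes were then -0.84 and -0.75, against -0.90 and -0.70 with all libraries. Both also missed the adjusted p without replicate 3 of VAS + H2O (0.0669 and 0.076), with log2 fold changes of -0.73 and -0.60.

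On the scale of CPM per kb of exon, which allows levels of different genes to be set side by side, Il20rb led in VAS + H2O with 69.4 ± 6.10 (SD, n = 3). Il20ra with 28.3 ± 6.60 and Il22ra1 with 28.0 ± 2.44 followed and did not differ beyond their spread. Il22ra2 stood at 10.3 ± 2.03, Il10rb at 4.21 ± 0.342 and Il20 at 0.229 ± 0.0739, each below the one before by more than the spread. Il19 and Il24 were at or under the floor. In IMQ + H2O the order was Il20rb at 43.1 ± 8.86, Il22ra1 at 24.9 ± 6.64, Il20ra at 15.3 ± 2.54, Il24 at 14.8 ± 11.5, Il22ra2 at 12.2 ± 2.47, Il10rb at 5.30 ± 0.340, Il19 at 5.24 ± 3.87 and Il20 at 0.155 ± 0.0819. Il24 there could not be told from its neighbours Il20ra and Il22ra2, nor Il19 from Il10rb. In IMQ + XYF, Il20rb was at 38.0 ± 6.66, Il22ra1 at 22.5 ± 3.32, Il20ra at 13.4 ± 1.07, Il22ra2 at 12.0 ± 2.71, Il24 at 10.9 ± 6.28, Il10rb at 5.06 ± 0.0577, Il19 at 4.82 ± 2.01 and Il20 at 0.0706 ± 0.122. Il20ra, level with Il22ra1 in the control means, was the lower of the pair in all 6 imiquimod libraries. It was also the lower in replicate 1 of VAS + H2O, at 20.9 against 30.8. In replicates 2 and 3 of VAS + H2O it was the higher, at 30.5 against 26.1 and 33.6 against 27.2.

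The balance of receptor chains was also measured within each library, which removes the scaling between libraries. The ratio of Il20rb to Il20ra in CPM per kb was 3.29, 2.08 and 2.25 in VAS + H2O, 2.68, 3.16 and 2.58 in IMQ + H2O and 2.28, 3.02 and 3.17 in IMQ + XYF. The ranges overlapped, and the log2 CPM ratio was 0.17 higher in IMQ + H2O than in VAS + H2O (exact permutation test, two-sided, p = 0.5). A difference between the falls of the 2 chains was not detectable with 3 libraries a group. The ratio of the decoy gene Il22ra2 to Il22ra1 in CPM per kb was 0.409, 0.338 and 0.346 in VAS + H2O. It was 0.409, 0.484 and 0.616 in IMQ + H2O and 0.733, 0.449 and 0.442 in IMQ + XYF. Against VAS + H2O, its log2 CPM ratio was higher by 0.45 in IMQ + H2O and by 0.53 in IMQ + XYF (exact permutation tests, two-sided, p = 0.1 each), and 3 libraries against 3 cannot give a p under 0.1.

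**Figure D4:**
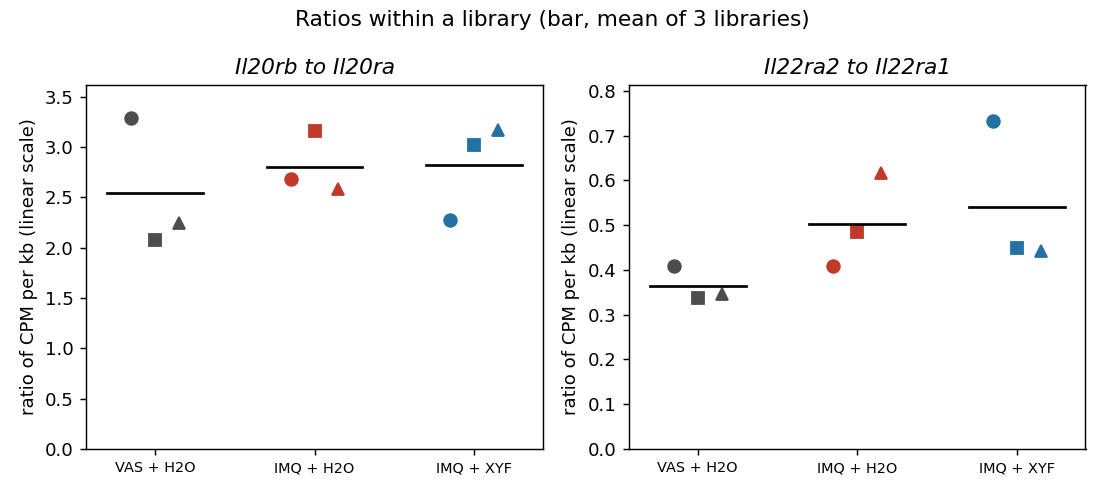
Ratios of CPM per kb (vertical axes, linear scale from 0) of Il20rb to Il20ra and of Il22ra2 to Il22ra1 in each of the 9 libraries, with the group mean as a bar. The Il20rb to Il20ra ratios overlap between groups at 2.08 to 3.29, and the Il22ra2 to Il22ra1 ratios are 0.338 to 0.409 in VAS + H2O and 0.409 to 0.733 in the imiquimod groups.

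Genes known to answer these cytokines were read next, in lists written by hand. Of 21 keratinocyte genes known to be raised by IL-20 family cytokines or IL-22, 18 could be tested in IMQ + H2O against VAS + H2O. By edgeR 13 were higher DEGs and 0 lower DEGs, where 3.64% of all genes tested were higher DEGs. At an unadjusted p under 0.05 in edgeR, 15 were higher and 1 was lower, Pdgfa, with a log2 fold change of -0.41. DESeq2 called 16, all higher. The median log2 fold change of those tested was 3.97, or 3.87 with the genes at 0 in the controls, Defb4 and Saa3, at their lower bounds, against -0.03 over all genes. Krt16, a keratin of hyperproliferating epidermis, rose from 67.5 ± 14.4 to 2700 ± 1140 CPM (SD, n = 3; edgeR adjusted p = 0.00194). Ccl20, a chemokine for CCR6-bearing cells, rose from 5.33 ± 2.27 to 117 ± 20.6 CPM (edgeR adjusted p = 0.00214). Lcn2, an iron-binding antimicrobial protein, rose from 1.79 ± 0.563 to 74.5 ± 39.3 CPM, and Cxcl1, a neutrophil chemokine, from 5.99 ± 1.11 to 82.1 ± 33.9 CPM (edgeR adjusted p = 0.00355 each). Many of these genes also answer IL-17, IL-1 and TNF, so the list is not specific to the family.

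The list of keratinocyte differentiation genes known to be lowered by these cytokines did not fall. Of its 15 genes, all tested, 0 were lower DEGs in edgeR or DESeq2 and 0 were lower at an unadjusted p under 0.05, while 3 rose: Krt1, a suprabasal keratin (log2 fold change 1.45, edgeR adjusted p = 0.0089), Ivl, a cornified envelope precursor (1.1, 0.00743), and Tgm3, an envelope cross-linking enzyme (1.17, 0.0184). Its median was 0.27. Of 14 JAK-STAT and feedback genes, Bcl3, a nuclear IκB protein and STAT3 target, was the DEG, rising from 4.98 ± 2.18 to 67.8 ± 11.7 CPM (SD, n = 3; edgeR adjusted p = 0.00379), and the median was 0.14. At the adjusted p alone, which 3986 of all 18009 genes tested passed, 2 were higher and 1 lower. Besides Bcl3 these were Stat3 (log2 fold change 0.76, edgeR adjusted p = 0.00806) and, lower, Tyk2 (-0.32, 0.0283). Of 14 cytokines upstream of the family, 10 could be tested and 4 rose as DEGs, Il1a, Il36g, Il36a and Il17c, with log2 fold changes of 2.15, 1.14, 1.81 and 3.81 (edgeR adjusted p = 0.00575, 0.00575, 0.00931 and 0.0185). Il17a had 0 counts in all 9 libraries. Of 7 other chains of the same receptor class 0 were DEGs in edgeR or DESeq2, and 2 were higher at an unadjusted p under 0.05, with a median of 0.35. The 6 tested genes beside the receptor genes held 0 DEGs by both tools, with 3 at an unadjusted p under 0.05. Ifngr1, Ifnlr1, Ifnar1, Ifnar2 and Ifngr2 stand in both of these lists, so their results are not separate. Over all genes tested in this comparison, 37.9% had an unadjusted p under 0.05.

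**Figure D5:**
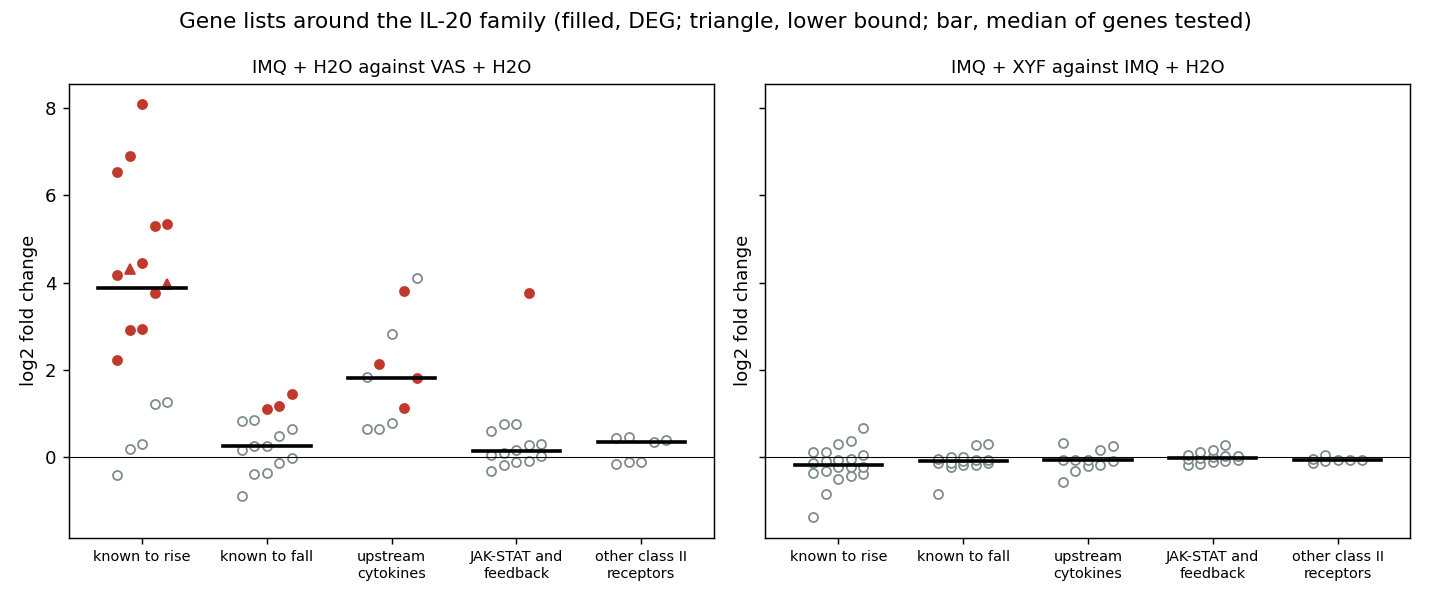
Log2 fold changes (vertical axis) of the genes tested in 5 lists around the family, for IMQ + H2O against VAS + H2O and for IMQ + XYF against IMQ + H2O. Filled points are DEGs, triangles are lower bounds for genes at 0 in the reference group and bars are medians, which are 3.87 for the genes known to be raised and 0.27 for those known to be lowered in the first comparison and -0.17 and -0.09 in the second.

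XYF was compared with ddH2O among mice with imiquimod. None of the 7 genes that could be tested changed by edgeR's test, and none had an unadjusted p under 0.05. DESeq2 called none either. Over all 17793 genes tested in this comparison 0.0281% were DEGs in edgeR, which is 5 genes, and DESeq2 called 129. All 8 genes overlapped between IMQ + XYF and IMQ + H2O, where 10.7% of all genes tested had no overlap. Il19 was at 5.53 ± 2.31 CPM with XYF and 6.02 ± 4.45 without (SD, n = 3), a log2 fold change of -0.13 with a 95% interval of -1.44 to 1.19. For Il24 it was -0.43 with an interval of -2.43 to 1.57. Without replicate 3 of IMQ + H2O the signs changed, to 0.63 for Il19 and 0.14 for Il24, and without replicate 1 of IMQ + XYF the values were 0.09 and -0.74, with edgeR adjusted p of 0.658 or more in each case. These intervals are wide, so a log2 change of 1 in either direction by XYF lies within them for both ligands. The receptor genes were bounded more tightly. Il20ra had -0.18 (95% interval -0.50 to 0.14), Il20rb -0.18 (-0.62 to 0.26), Il22ra1 -0.13 (-0.63 to 0.36), Il22ra2 -0.02 (-0.51 to 0.48) and Il10rb -0.06 (-0.28 to 0.16), all with an edgeR adjusted p of 1. The log2 ratio of Il22ra2 to Il22ra1 differed by 0.08 (exact permutation test, two-sided, p = 0.7). In the 5 lists shown in the plot of pathway genes, 0 genes were DEGs with XYF by edgeR or DESeq2, and 0 had an unadjusted p under 0.05 in edgeR.

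IMQ + XYF and IMQ + H2O were each set against the same VAS + H2O libraries, so their values share those controls. In IMQ + XYF, 2 of the 8 genes were higher DEGs, Il19 and Il24, where 4.58% of all genes tested were. Of the 21 genes known to be raised 13 were DEGs, with a median of 3.8 over the 18 tested, or 3.56 with the gene at 0 in the controls at its bound. Of the 14 upstream cytokines 11 could be tested and 7 were higher DEGs. DESeq2 called 8 higher here and 6 in IMQ + H2O. Osm, a DEG here, did not pass the low-count filter in IMQ + H2O against VAS + H2O. Of the 15 differentiation genes 2 were higher DEGs, Krt1 and Tgm3, and 0 were lower DEGs. At the adjusted p alone 6 were higher and 3 lower, where 16.7% of all genes tested were higher and 12% lower.

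The genes most like each member were sought by Pearson's r of log2 CPM over the 9 libraries, as a description. The libraries share the contrast of Vaseline and imiquimod, so for the members that differed without overlap r reflects mainly that contrast. For Il22ra1 and Il22ra2, whose groups overlapped, r cannot be read in that way. For Il19 they were Gm8186 (0.995), Rrm2 (0.994), a ribonucleotide reductase subunit made in S phase, and Ppm1g (0.994). For Il24 they were Gm5416 (0.994), Bcl2a1d (0.992) and Has3 (0.992), a hyaluronan synthase of keratinocytes that had 3.02 to 4.04 CPM in VAS + H2O and 42.9 to 163 in the imiquimod libraries. For Il20ra they were Npc1 (0.992), Bmp4 (0.984) and Pdcd4 (0.983), and for Il20rb Saxo2 (0.993), Lrp4 (0.989) and Fuca1 (0.986). Bmp4, a growth factor of the BMP family, had 11 to 18.4 CPM in VAS + H2O and 5.60 to 8.05 in the imiquimod libraries. For Il22ra1 they were Tcp10b (0.967), Alox12e (0.963) and Gak (0.962), for Il10rb 2310046K23Rik (0.991), Rassf10 (0.985) and Rdh1 (0.979), and for Il22ra2 Fzd5 (0.926), Gm16184 (0.91) and Rab11fip4os1 (0.899).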

How the data were processed

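RNA sequencing was performed on 9 epidermis libraries, which the deposited labels place in the control, model and XYF groups, 3 in each. The study's methods give STAR as the aligner, GRCm38 as the genome and Ensembl 90 as the annotation, and the submitters' processing notes name STAR 2.5, FastQC, Cuffnorm and DESeq 1.22.1. The authors deposited whole-number counts per gene, without normalization. The labels call the libraries strand-specific, while the counting tool and its strand setting are not given in the sources used here. No per-sample column was left unused (0).

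The 8 genes, the gene lists and the tests were chosen with earlier results of these data known. Counts of all genes were fitted for each pair of groups with edgeR 4.0.16 in R 4.3.3 (TMM, filterByExpr, quasi-likelihood test) and p-values were adjusted by Benjamini and Hochberg over all genes tested. Standard errors and 95% intervals come from that test. DESeq2 1.42.0 was the alternative, and other alternatives were other size factors, other filters, 1 fit of all libraries, the replicate block, other thresholds and each library left out. Ratios used a prior count of 2 in log2 CPM and an exact permutation test. The fits were checked on simulated data. Up to 4 DEGs of each list were named by smallest adjusted p, and the 3 genes most like each member. Il36 genes were matched by older symbols. Positions and exon lengths are from GENCODE M21. Deviations of same-numbered libraries from their group means correlated at -0.13 to 0.11, so the replicate numbers were not taken to pair libraries. Libraries of a group differed by more than counting noise.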

Additional observations from a re-analysis of the deposited data

How the results depend on the processing

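In IMQ + H2O against VAS + H2O, 2 of the 8 genes, Il19 and Il24, were DEGs. The count was 4 with the adjusted p alone as threshold, which added Il20ra and Il20rb. These 2 then passed or missed with single libraries: without replicate 2 or 3 of VAS + H2O both missed, as did Il20rb without replicate 1 of VAS + H2O or of IMQ + H2O and Il20ra without replicate 2 or 3 of IMQ + H2O. It was 0 when fold changes were tested against 1 on the log2 scale, with an adjusted p of edgeR of 0.0501 for Il19 and 0.144 for Il24. It was also 0 with at least 10 counts required in every library, a filter that removes Il19, Il20 and Il24. It ranged from 2 to 3 with 1 library left out, the third being Il20ra without replicate 1 of VAS + H2O. In IMQ + XYF against VAS + H2O, 3 were DEGs, and the count was 1, Il20ra, with at least 10 counts in every library and 2 to 4 with 1 library left out. Without replicate 1 of IMQ + XYF, Il20 was called, with 0 counts in both libraries left. In IMQ + XYF against IMQ + H2O the count was 0 under all 14 alternatives. With the replicate block the counts were 2, 0 and 3 in these comparisons, the same DEGs as without it, while in IMQ + H2O against VAS + H2O the edgeR adjusted p with the block was 0.0712 for Il20ra and 0.0591 for Il20rb.

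Between IMQ + XYF and IMQ + H2O several small values changed sign. With 1 library left out, the log2 fold change ranged from -0.51 to 0.63 for Il19, -0.95 to 0.14 for Il24, both highest without replicate 3 of IMQ + H2O, -0.33 to 0.06 for Il22ra1 and -0.20 to 0.16 for Il22ra2. The log2 ratio of Il20rb to Il20ra ranged from -0.09 to 0.15 and that of Il22ra2 to Il22ra1 from -0.15 to 0.24. With the replicate block Il19 was at 0.06. In IMQ + H2O against VAS + H2O, Il22ra1 ranged from -0.34 to 0.01 with 1 library left out. The cause was not tested. Il19 and Il24 had 70 to 1473 counts in the imiquimod libraries, so the spread between libraries exceeds their counting error. Il20 had 0 to 16 counts in any library. In IMQ + XYF its counts were 16, 0 and 0, and the part of depth in this was not tested.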
